A study of Mus musculus with 10 samples.

Results

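The 10 genes described here encode contractile and calcium-handling proteins of skeletal muscle, and were taken by gene name as a measure of host muscle RNA in mammary tumour libraries. They are Acta1, Ckm, Myh1, Myh4, Mylpf, Tnnt3, Tnnc2, Atp2a1, Pvalb and Myl1, and all 10 were found, each in a single row, among the 37882 genes of the counts table. MCa-M3C cells, which are a line of mouse mammary cancer, had been placed orthotopically in FVB/N mice to form the tumours. The control group (n = 5) received PBS and the TMA-ARB group (n = 5) received valsartan at 40 mg/kg in the TMA-ARB form, an angiotensin receptor blocker built to act in the tumour microenvironment. Both were given intravenously each day for 6 days, starting from tumours of about 100 mm3. The labels give neither the age of the mice nor how tumours were parted from the tissue around them. Nor do they tie libraries to animals, and a p-value here reflects how much the libraries vary, which may be technical. The libraries are bulk RNA with no positions, so the place of the muscle RNA within a sample was not measured.

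Skeletal muscle fibres shorten when myosin motors pull on thin filaments built from alpha-actin. Troponin on the thin filament reads calcium, a calcium pump returns it to the sarcoplasmic reticulum, and creatine kinase refills ATP. Fast and slow fibres use different genes for many of these parts, above all for the myosin heavy chain. The mammary fat pad lies against skin and body wall muscle, and mammary epithelium itself forms no striated fibres.

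Totals ran from 12742953 to 16884621 counts per library, and levels are in CPM, a gene's counts relative to the library total after TMM scaling for composition. Mitochondrially encoded genes, whose share of counts differed widely between these libraries, took 2.15% in control replicate 1 and 6.37% in control replicate 3, 2.07% to 6.63% over all controls and 2.22% to 25.0% under TMA-ARB. These 2 libraries stood apart from the other 8 in the muscle genes, so the group comparisons are given with and without them.

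Promoter windows of 9 of the 10 genes were matched in RefSeq (GRCm38.p6), as the 250 bases before each start. The windows of 4 genes are shown because they hold the sequence matches and cover the differing patterns: Acta1, present in every library, the neighbouring fast myosin genes Myh1 and Myh4, and Pvalb, at 0 in all TMA-ARB libraries. They lie at chr8:123894776-123895025 (minus strand), chr11:67199852-67200051 (plus), chr11:67237562-67237811 (plus) and chr15:78206401-78206650 (minus). The Myh1 window is shown to the base before its GENCODE start, 200 bases in all. Matches were counted over full windows, of which only 17 bases for Tnnc2 and 215 for Atp2a1 lie before the GENCODE start. Capitals mark a match, on either strand, to the CArG box bound by serum response factor or to the site of the MEF2 family.
Acta1: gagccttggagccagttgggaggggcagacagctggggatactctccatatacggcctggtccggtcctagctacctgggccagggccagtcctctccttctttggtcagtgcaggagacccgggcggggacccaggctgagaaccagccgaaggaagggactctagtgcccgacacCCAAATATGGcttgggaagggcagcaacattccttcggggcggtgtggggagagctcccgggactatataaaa
Myh1: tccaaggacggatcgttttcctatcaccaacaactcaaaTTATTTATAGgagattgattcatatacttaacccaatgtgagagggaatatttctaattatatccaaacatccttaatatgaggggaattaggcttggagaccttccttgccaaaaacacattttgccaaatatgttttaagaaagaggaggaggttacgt
Myh4: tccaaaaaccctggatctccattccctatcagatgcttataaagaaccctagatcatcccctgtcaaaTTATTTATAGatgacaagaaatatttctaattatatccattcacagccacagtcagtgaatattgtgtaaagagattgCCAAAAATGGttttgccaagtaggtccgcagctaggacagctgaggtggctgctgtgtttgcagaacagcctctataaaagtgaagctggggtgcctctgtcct
Pvalb: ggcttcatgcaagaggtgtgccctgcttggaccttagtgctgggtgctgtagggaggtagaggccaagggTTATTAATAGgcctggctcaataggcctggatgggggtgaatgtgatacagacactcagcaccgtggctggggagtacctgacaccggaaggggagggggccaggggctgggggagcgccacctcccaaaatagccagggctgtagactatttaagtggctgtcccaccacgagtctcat

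The CArG box was found in the Acta1 window, 73 bases before the start, and in that of Myh4, 104 bases before it. Both distances are to the RefSeq start, which for both genes lies upstream of the GENCODE start. The Myh4 window ends at 67237811, against a GENCODE start of 67238029. That motif stands in 1.47% of all 32851 RefSeq windows of this length. A MEF2 match stood in the windows of Myh1, Myh4 and Pvalb, against 2.92% of all windows, and the Myh1 and Myh4 matches have the same letters. The longest run shared by the Myh1 and Myh4 windows was 20 bases, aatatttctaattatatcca. The E-box CANNTG bound by myogenic factors stood in 8 of 10 windows of these genes (Pvalb has a pair of windows), against 66.2% of all windows. TATAAA was in 4 of 10, against 12.4%. A match is a run of letters and not a measured binding site.

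RNA of the genes other than Acta1 was concentrated in 2 control libraries. Acta1 was set aside after its values had been seen. The other 9 genes summed to 114 CPM in control replicate 1 and 66.7 in control replicate 3. The remaining controls held 3.92 (replicate 2), 5.09 (replicate 4) and 4.66 CPM (replicate 5). The TMA-ARB libraries held 2.24, 1.90, 6.42, 6.65 and 8.50 CPM in replicates 6 to 10. The 3 other controls thus lay inside the TMA-ARB range. Even in control replicate 1 the 9 genes made up only 0.0122% of all counts (95% exact binomial interval 0.0116 to 0.0128), and in control replicate 3 0.00687% (0.00646 to 0.00731). In bulk tissue, fewer muscle fibres and less RNA per fibre cannot be told apart. Control replicates 1 and 3 were the highest libraries for 9 of the 10 genes. The background for that pattern was 1.46% of the 17815 genes with at least 20 counts; it was looked for after the values had been seen.

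**Figure D1:**
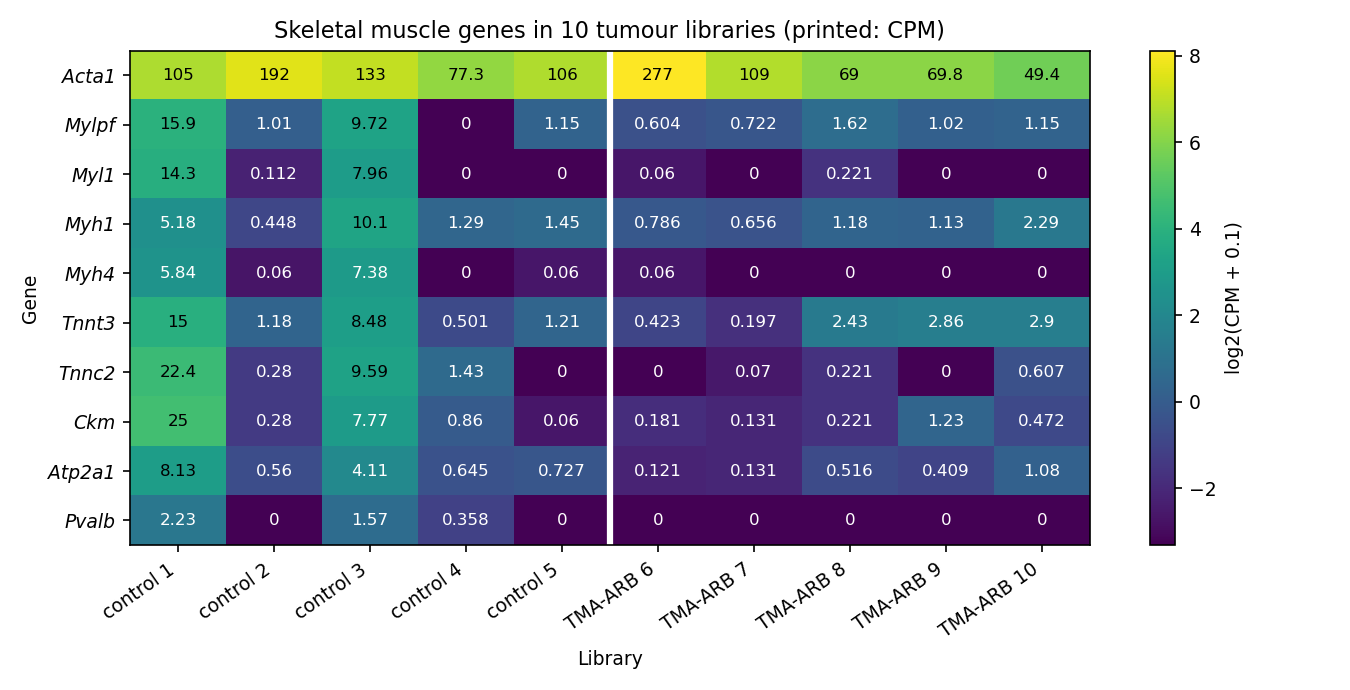
Level of each of the 10 muscle genes (rows) in each library (columns, 5 control and 5 TMA-ARB, parted by the white line). Colour is log2(CPM + 0.1) and the printed figure is CPM. Control 1 and control 3 are the bright columns for 9 genes, with Ckm at 25.0 and 7.77 CPM, while the Acta1 row is bright throughout and peaks at 277 CPM in TMA-ARB 6.

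Myosin heavy chains, the motor proteins, were described first. Myh4, the heavy chain of the fastest (type IIb) fibres, lies on chromosome 11 (67238029 to 67260446, plus strand). It measured 5.84 CPM in control replicate 1 and 7.38 in control replicate 3. The other controls were at 0.056, 0 and 0.061 CPM, and the TMA-ARB libraries had 1 count in all, in replicate 6. The groups overlapped, since 3 controls were as low as the treated libraries. Summed over groups, Myh4 had 204 counts in controls and 1 under TMA-ARB, a control to TMA-ARB ratio of 181 with a 95% counting interval of 32.1 to 7177, which ignores the spread between libraries. The ratio was 100.1 without control replicate 3, and without control replicates 1 and 3 only 2 control counts were left.

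Myh1, the type IIx heavy chain, is its neighbour on chromosome 11 (67200052 to 67224575, with the antisense gene Myhas overlapping it). It measured 5.18, 0.448, 10.1, 1.29 and 1.45 CPM in control replicates 1 to 5 and 0.786, 0.656, 1.18, 1.13 and 2.29 in TMA-ARB replicates 6 to 10. Control replicates 1 and 3 were the highest, but every library held some Myh1. That differs from Myh4, and the make-up of the pair shows it. Myh4 took 53.0% of the Myh1 and Myh4 counts in control replicate 1 (95% exact interval 45.1 to 60.7; 168 counts) and 42.2% in control replicate 3 (36.2 to 48.3; 268 counts). In the other 8 libraries summed it took 2.19% (0.454 to 6.27; 137 counts). The low Myh1 counts outside control replicates 1 and 3 therefore came with almost no Myh4. Those 2 libraries were set apart after the values of these genes had been seen, and the intervals cover counting error only. The share could not be tested between groups, because only control replicates 1, 3 and 5 and TMA-ARB replicate 10 had at least 20 counts. Of the 31-base words of Myh1 transcripts, 37.0% also occur in Myh2, Myh3, Myh4 or Myh8, and of Myh4 29.8% occur in its relatives, so the estimated counts of these genes carry extra uncertainty.

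Of the remaining sarcomeric heavy chains, the adult fast chain Myh2 was nearly confined to control replicates 1 and 3. Myh2 (type IIa) had 4 counts in control replicate 1, 48 in control replicate 3 and 1 in the other 8 libraries. Of the 3 adult fast chains Myh2 took 2.33% in control replicate 1 and 15.2% in control replicate 3. Myh7, the slow chain, and Myh6, a cardiac chain, had 0 counts in both, which allows up to 3 counts each. The embryonic chain Myh3 had 2 counts and 1 count there. Perinatal Myh8 did not follow the others, with 14 and 12 counts in control replicates 1 and 3 but 18 in TMA-ARB replicate 8.

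Myosin light chains sit at the neck of the motor. Myl1, the alkali light chain of fast fibres (chromosome 1, 66924295 to 66945404), measured 14.3 and 7.96 CPM in control replicates 1 and 3. The other controls were at 0.112, 0 and 0 CPM, and TMA-ARB replicates 6 to 10 at 0.060, 0, 0.221, 0 and 0. It was thus nearly confined to control replicates 1 and 3, which held 98.3% of its 346 counts. Mylpf, the fast regulatory light chain (chromosome 7, 127208890 to 127214298), measured 15.9, 1.01, 9.72, 0 and 1.15 CPM in controls and 0.604, 0.722, 1.62, 1.02 and 1.15 under TMA-ARB. It kept a low level in 7 of the other 8 libraries and was at 0 in control replicate 4, where up to 0.215 CPM could have gone uncounted.

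Troponin makes the thin filament answer to calcium. Tnnc2, the calcium-binding subunit of fast fibres (chromosome 2, 164777161 to 164779967, overlapping the cell cycle gene Ube2c on the opposite strand), measured 22.4, 0.280, 9.59, 1.43 and 0 CPM in control replicates 1 to 5. TMA-ARB replicates 6 to 10 were at 0, 0.066, 0.221, 0 and 0.607 CPM. Control replicate 4, at 1.43 CPM, lay above all TMA-ARB libraries for this gene. Tnnt3, which ties troponin to tropomyosin in fast fibres (chromosome 7, 142498836 to 142516009), measured 14.95, 1.18, 8.48, 0.501 and 1.21 CPM in controls and 0.423, 0.197, 2.43, 2.86 and 2.90 under TMA-ARB. On the opposite strand, Prr33 overlaps Tnnt3. For Tnnt3, TMA-ARB replicates 8, 9 and 10 lay above the 3 other controls. Their partner Tnni2, the inhibitory subunit, was named after its values were seen: it reached 30.6 CPM in control replicate 1 but also 26.4 in TMA-ARB replicate 9, against 14.5 in control replicate 3, so this fast-fibre gene did not single out the same libraries.

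Energy and calcium handling genes followed the fast contractile genes. Ckm, muscle creatine kinase (chromosome 7, 19404776 to 19422841), measured 25.0, 0.280, 7.77, 0.860 and 0.061 CPM in controls and 0.181, 0.131, 0.221, 1.23 and 0.472 under TMA-ARB. Control replicate 1 held 381 of its 545 counts. The antisense gene A930016O22Rik overlaps Ckm. Atp2a1, the calcium pump of the fast sarcoplasmic reticulum (chromosome 7, 126445858 to 126463108), measured 8.13, 0.560, 4.11, 0.645 and 0.727 CPM in controls and 0.121, 0.131, 0.516, 0.409 and 1.08 under TMA-ARB. Apart from control replicates 1 and 3, its groups overlapped. On the opposite strand, the gene Rabep2 overlaps Atp2a1. Pvalb, parvalbumin, a calcium buffer of fast fibres (chromosome 15, 78191114 to 78206400), had 34, 0, 24, 5 and 0 counts in controls and 0 in every TMA-ARB library, which allows up to 0.181 to 0.307 CPM in each. Taking 3 counts over the whole TMA-ARB group as the limit, it was at least 18.6-fold lower there. That bound was 10.6-fold without control replicate 1 and 2.41-fold without control replicates 1 and 3, and 2 controls were at 0 as well.

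Acta1, skeletal alpha-actin (chromosome 8, 123891769 to 123894751, inside the span of Gm20388 on the opposite strand), behaved unlike the other 9. It measured 105, 192, 133, 77.3 and 106 CPM in control replicates 1 to 5 and 277, 109, 69.0, 69.8 and 49.4 in TMA-ARB replicates 6 to 10. The highest libraries were TMA-ARB replicate 6 and control replicate 2, where the other 9 genes summed to 2.24 and 3.92 CPM. Control replicate 1, with the most of the other 9, ranked 6 of 10 for Acta1, and only 19.7% of its 18510 counts came from control replicates 1 and 3, against 63.6% to 98.5% for the others. Because Acta1 held most counts of the list, the sum over all 10 genes was largest in TMA-ARB replicate 6, at 279 CPM, ahead of control replicate 1 at 219. The smooth muscle actins Acta2 and Actg2 carry no 31-base word in common with Acta1. They also peaked in TMA-ARB replicate 6, at 714 and 146 CPM, as did the smooth muscle gene Tagln at 111 CPM. Acta2 was close behind in control replicate 3, at 675 CPM, where Acta1 was at 133. Actg2 was close behind in control replicate 4, at 143 CPM, where Acta1 was at 77.3. Of the 1534 words of Acta1, 3.72% occur in other actin genes, in Actb or Actg1. TMA-ARB replicate 6 was also the highest library for the epithelial genes Krt19 (51.5 CPM, at most 9.59 elsewhere) and Epcam (12.0, at most 3.07 elsewhere); the most abundant genes of that list did not peak there, with Krt18 at 92.2 CPM (201 in TMA-ARB replicate 8) and Erbb2 at 34.5 (up to 49.0 in TMA-ARB replicate 9). The 10 tumour epithelial genes summed to 278 CPM in TMA-ARB replicate 6 and 282 in TMA-ARB replicate 8, where Acta1 was at 69.0. The part of any of these in the Acta1 level was not tested. Tagln, Krt19 and Epcam were named after their values were seen.

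**Figure D2:**
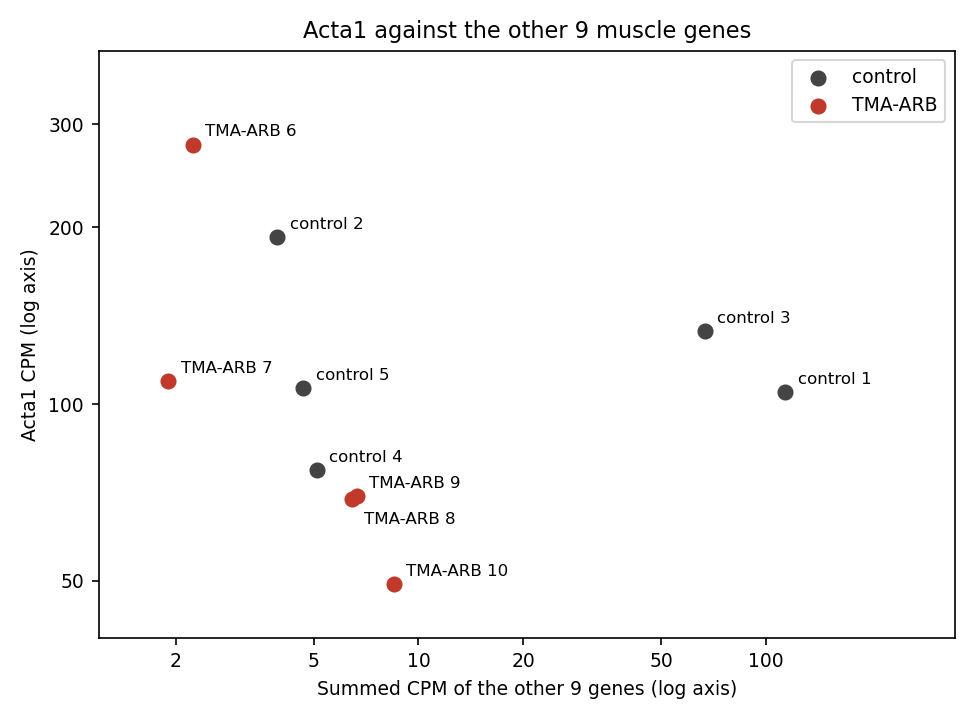
Acta1 CPM (vertical, log axis) against the summed CPM of the other 9 muscle genes (horizontal, log axis), with 1 point per library, grey for control and red for TMA-ARB. Control 1 and control 3 sit far to the right at 114 and 66.7 CPM but at middling Acta1, and TMA-ARB 6 has the highest Acta1 with 2.24 CPM of the rest.

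Per length, the order of levels within the muscle-rich libraries was as follows. In control replicate 1, CPM per kb of the longest coding transcript was 72.5 for Acta1, 32.0 for Tnnc2, 20.7 for Mylpf, 13.9 for Tnnt3, 13.2 for Myl1 and 9.11 for Ckm. It was 2.34 for Atp2a1, 2.28 for Pvalb, 0.970 for Myh4 and 0.852 for Myh1. In control replicate 3 Acta1 stood at 92.1, Tnnc2 at 13.7 and Mylpf at 12.7 CPM per kb. Small thin-filament and light-chain genes thus led in both, and the heavy chains lay lowest in control replicate 1. Acta1, the first in both, stood higher still in TMA-ARB replicate 6, at 191 CPM per kb, where the other 9 genes summed to 2.24 CPM. With the union of exons as length, Myl1 (6.89) lay below Ckm (8.58) in control replicate 1.

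The comparison of TMA-ARB with control tumours asked whether the treated tumours differed in muscle RNA. All 10 log2 fold changes were negative and 0 of 10 genes passed edgeR's quasi-likelihood test with adjustment over all genes, where 0% of the table passed as well (0 of 14063 genes after the low-count filter and 0 of 23981 without it). Only 4 members cleared that filter (Acta1, Myh1, Mylpf and Tnnt3), so the other 6 were read from the fit with no filter. Myh1 had a log2 fold change of -1.61 ± 0.73 (SE; edgeR adjusted p = 0.997), from a control mean of 3.70 ± 4.02 CPM and a TMA-ARB mean of 1.21 ± 0.65 (SD, n = 5 each). Mylpf was at -2.43 ± 1.05, Tnnt3 at -1.59 ± 0.95 and Acta1 at -0.10 ± 0.44, with the same adjusted p. For Acta1 the group means were 123 ± 43.6 and 115 ± 93.2 CPM. In the fit with no filter Ckm was at -3.98 ± 1.55, Tnnc2 at -5.13 ± 1.79, Atp2a1 at -2.63 ± 0.83 and Myl1 at -6.08 ± 2.16 (edgeR adjusted p = 0.730 for all 6). Fitted values of Myh4 and Pvalb hang on the prior count and are given above as ratios of counts. With the adipocyte list as a covariate, Myh4 alone reached an adjusted p of 0.0449 in edgeR, against 0.730 without it. That fit put its log2 fold change at -12.08, with 1 Myh4 count under TMA-ARB. Control replicates 1 and 3 held 98.5% of all Myh4 counts. The adipocyte list also holds Car3, a muscle gene too, at 4.98 and 5.74 CPM in control replicates 1 and 3. The mitochondrial share of counts was 10.5%, 25.0% and 11.7% in TMA-ARB replicates 8, 9 and 10, above every control. With its log2 as a covariate in edgeR, unadjusted p rose to 0.0926 for Ckm, 0.113 for Mylpf, 0.0585 for Tnnc2 and 0.0549 for Myl1, from 0.0317, 0.0388, 0.0199 and 0.0213. It rose but stayed under 0.05 for Myh4 (0.0146), Atp2a1 (0.0123) and Pvalb (0.0068). For Myh1 it fell from 0.0459 to 0.0171, with a log2 fold change of -2.02. Tnnt3 (0.121 to 0.104) and Acta1 (0.830 to 0.478) also fell.

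The median log2 fold change of the 10 was -3.31, also with Pvalb at its bound, where the median of all genes was 0.05 with no filter. At an unadjusted p under 0.05, 2 of the 4 filtered members were lower (Myh1 and Mylpf), against 1.66% of the genes tested, and 7 of 10 with no filter, against 2.24%. None of the 10 (0) had groups that did not overlap, which 0.246% of genes had in that direction. These shares lie above the background for the p-values, but they rest on 2 libraries. The members and the other lists were chosen with earlier results of these data known, so a comparison with the background is no test. The background with no filter also holds genes with very few counts. Without control replicates 1 and 3, a setting added after the values had been seen, the median was -0.0045, with 5 genes negative and 5 positive. Mylpf was then at 0.48 ± 0.97, Tnnt3 at 0.85 ± 0.90, Myh1 at 0.18 ± 0.72, Ckm at 0.12 ± 1.28 and Myl1 at 0.45 ± 1.77, so these 5 turned direction. Tnnc2 stayed negative at -1.61 ± 1.51, Atp2a1 at -0.54 ± 1.10 and Acta1 at -0.13 ± 0.55. Pvalb, with 5 counts left in control replicate 4, had an unadjusted edgeR p of 0.0448, and 0 of 10 passed the adjusted test.

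**Figure D3:**
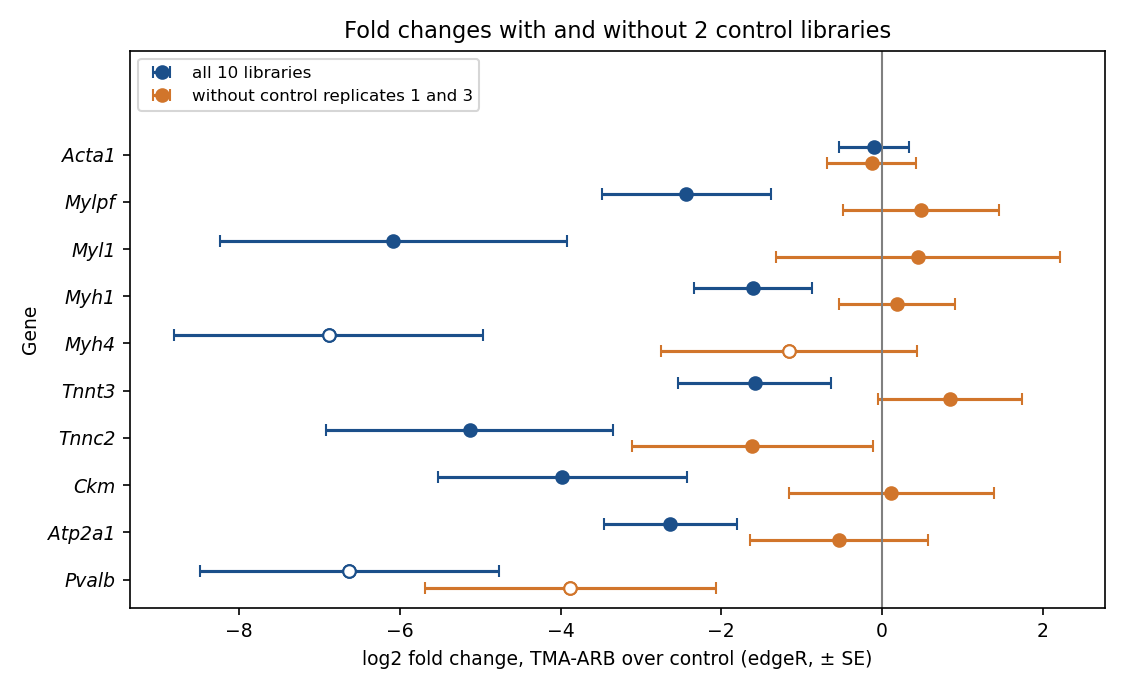
Log2 fold change of each gene, TMA-ARB over control (points) with its standard error (bars), from edgeR with all 10 libraries (blue) and without control replicates 1 and 3 (orange). Open points (Myh4, Pvalb) have at most 1 count in the TMA-ARB group, so their position depends on the prior count. With the 2 libraries left out Mylpf moves from -2.43 to 0.48, while Pvalb (-3.88), Tnnc2 (-1.61) and Myh4 (-1.16) stay below 0 and Acta1 is near 0 in both.

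The 2 muscle-rich controls were then set against each other. The 10 genes did not share 1 ratio. Control replicate 3 over control replicate 1 was 1.95 for Myh1 (95% exact counting interval 1.48 to 2.59) and 1.26 for Myh4 (0.949 to 1.69). It was 0.613 for Mylpf (0.496 to 0.754), 0.557 for Myl1 (0.442 to 0.698) and 0.428 for Tnnc2 (0.350 to 0.520). Ckm was lowest of the 10, at 0.311 (0.251 to 0.383). Myh1 and Myh4 were thus as high or higher in control replicate 3, and the light chains, troponins and creatine kinase higher in control replicate 1. The heavy chain Myh8, outside the 10, had 14 counts in control replicate 1 and 12 in control replicate 3. These intervals compare 2 libraries and cover counting error only.

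Other muscle genes, picked after their values were seen, spread further. Myh2 had a ratio of 11.9 (4.37 to 45.6). Myoglobin (Mb), the oxygen store of muscle, was at 0.236 (0.151 to 0.359), sarcolipin (Sln), which regulates the calcium pump, at 0.162 (0.0615 to 0.363) and Mybpc2, the fast myosin-binding protein C, at 0.112 (0.0559 to 0.203). The giant scaffold titin (Ttn) was at 0.985 (0.732 to 1.32), and nebulin (Neb) at 0.757 (0.473 to 1.201). At a length of 3000 bases, a bound also chosen after the values were seen, all 13 genes with a shorter longest coding transcript, Acta1 left out, had a ratio below 1 (median 0.474, range 0.162 to 0.727). So did 6 of 11 longer ones (median 0.985), including Des, at 3028 bases just past the bound, with 0.273. Acta1, at 1446 bases, had a ratio of 1.27 (1.19 to 1.36). Over the 12683 of 14063 filtered genes that have a coding transcript, split by length into 4 groups from short to long, the same log2 ratio had medians of -0.063, -0.092, -0.037 and 0.12. The part of that shift in the muscle genes was not tested.

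**Figure D4:**
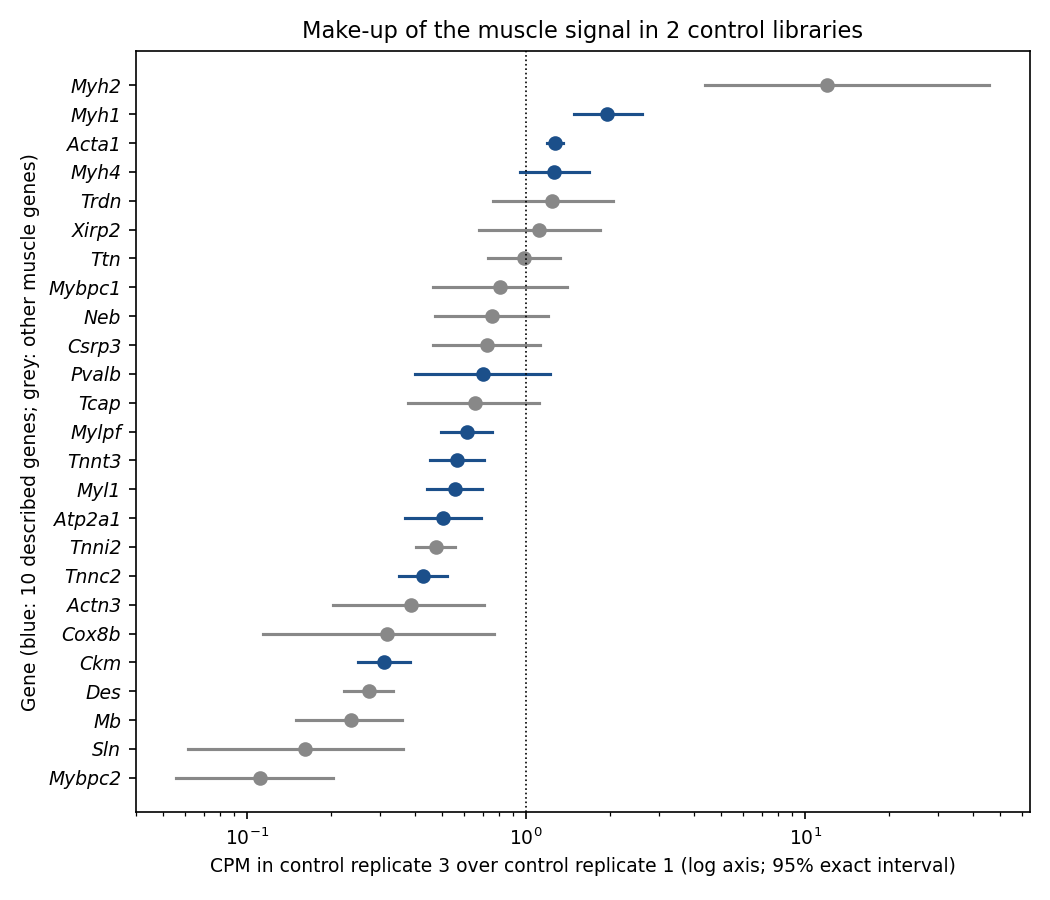
CPM in control replicate 3 over that in control replicate 1 (points, log axis) with 95% exact counting intervals (lines), for the 10 genes (blue) and 15 other muscle genes (grey). Ratios run from 0.112 for Mybpc2 to 11.9 for Myh2. Myh1 (1.95) comes next to Myh2, followed by Acta1 (1.27), Myh4 (1.26) and Trdn (1.24).

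Wider lists of muscle genes showed how far the pattern reached. Of 53 other fibre genes, 41 had at least 20 counts, and 23 of those were highest in control replicates 1 and 3 (56.1%, against 1.46% of all genes). They included Ttn at 6.23 and 6.14 CPM, at most 1.89 elsewhere, and triadin (Trdn) of the calcium release complex at 2.10 and 2.61, at most 0.337 elsewhere. Xirp2, Mybpc1 and Mb followed. The most abundant genes of that list did not follow: Eno3, an enolase, ran from 152 to 304 CPM and Fbxo32, a ubiquitin ligase gene, from 7.94 to 60.6, both with their highest value in another library. Summed, the 53 genes reached 384 and 383 CPM in control replicates 1 and 3, of which Eno3 held 234 and 261. The sum was 258 to 315 CPM in the other controls and 287 to 399 under TMA-ARB, highest in TMA-ARB replicate 9. Group means of the sum were 328 CPM in controls and 326 under TMA-ARB. Of the 13 that passed the low-count filter, 8 were negative (median -0.12). Among these 13, 0 were lower at an unadjusted edgeR p under 0.05, against 1.66% of all filtered genes. In the fit with no filter 46 of the 53 were negative (median -1.55), where 45.4% of all genes were negative. At an unadjusted p under 0.05, 16 were lower and 0 higher, against 2.24% of all genes lower, and 0 passed edgeR. Without control replicates 1 and 3, 46 of the 53 still had counts, of which 20 were negative and 26 positive (median 0.18), with 1 lower and 1 higher at that p. Of the 7 slow-fibre genes with enough counts 2 were highest in control replicates 1 and 3, among them Csrp3, a Z-disc gene, at 3.41 and 2.48 CPM. For slow-fibre Tnnc1 those libraries held 6.95 and 4.57 CPM and up to 10.4 under TMA-ARB. The slow-fibre list summed to 17.1 CPM in control replicate 1, the highest library, and 8.22 in control replicate 3. It summed to 3.39 to 9.89 CPM in the other controls and 3.20 to 14.3 under TMA-ARB.

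Genes of growing muscle, of muscle stem cells and of the neuromuscular junction were read next. None of the 5 developmental genes (0), 5 myogenic and stem cell genes (0) and 4 neuromuscular junction genes (0) with enough counts was highest in control replicates 1 and 3. As only 1.46% of all genes with at least 20 counts had that pattern, 0 among so few genes says little. Pax7 and Myf5, which mark muscle stem cells, had 0 counts in all 10 libraries, and Myod1 had 2 counts, both in TMA-ARB replicate 9. Myog had 5 counts in control replicate 3 and 2 in control replicate 2. None of the 4 cardiac genes with enough counts (0) had the pattern either, against the same 1.46%. Over the 2 most abundant genes of each other list, log2 fold changes ran from -0.32 ± 0.46 (Fbxo32) to 0.61 ± 1.11 (Heyl, a Notch target gene), and 0 passed edgeR. Without control replicates 1 and 3 they ran from -0.61 ± 0.51 (Fbxo32) to 0.91 ± 1.37 (Heyl), again with 0 called.

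Markers of other tissues near the fat pad were read beside the muscle genes. The 18 adipocyte genes summed to 113 CPM in control replicate 1 and 105 in control replicate 3, with 88.5 to 98.8 in the other controls and 83.7 to 113 under TMA-ARB. Among them Adipoq, Cidec and Lep had 0 counts in all 5 controls. These 3 had counts in TMA-ARB replicate 6 (0.302, 0.786 and 0.242 CPM) and Adipoq also in TMA-ARB replicate 7 (0.263 CPM). Plin1, a lipid droplet coat gene, had 4 to 10 counts in each control and was highest in TMA-ARB replicate 9 (1.74 CPM). Car3, listed with adipocytes but also a muscle gene, reached 4.98 CPM in control replicate 1, 5.74 in control replicate 3 and 3.38 in TMA-ARB replicate 6, with at most 1.53 elsewhere. The 10 epidermis genes summed to 21.1 CPM in each of the 2 libraries, inside the TMA-ARB range of 12.9 to 38.2, and the 10 Schwann cell genes to 21.8 and 18.3, inside 11.1 to 26.2. Among smooth muscle and mural genes only Des, desmin, an intermediate filament of all muscle, was highest in both (1 of 13), at 30.6 and 8.35 CPM, against at most 1.58 elsewhere.

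The genes whose log2 CPM most resembled the mean of the 10 were listed as a description over the 10 libraries, which are not evenly spread. Of the 15 nearest among genes that passed the filter, Pearson's r ran from 0.771 to 0.844. Muscle genes among them were Pygm, muscle glycogen phosphorylase (r = 0.842), Ttn (0.826), Pgam2, a muscle phosphoglycerate mutase (0.812), Des (0.807) and Synm, an intermediate filament partner of desmin (0.771). The others included Nr4a2 (0.808), a nuclear receptor gene, and Dusp2 (0.793), a phosphatase gene, together with Ccdc41os1 (0.844), Cyhr1 (0.837), AI846148 (0.829), A530020G20Rik (0.798), Slfn1 (0.797), Tnfrsf14 (0.792), Mdfi (0.778) and Irak4 (0.774). For Acta1 alone, a list added after the values had been seen, the nearest were Hspa4 (r = 0.962), Xpo5 (0.959) and Tiam1 (0.951), and 0 of its 15 nearest genes were in any muscle list.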

How the data were processed

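Poly-A RNA of 10 tumours (5 control, 5 TMA-ARB, grouped by sample title) was sequenced from strand-marking libraries, per the labels' protocols. The authors deposited estimated counts for 37882 Ensembl genes. Salmon and the mm10 build were used, per the submitters' processing notes; the Salmon version, annotation and strand setting are not given in the sources used here. Deposited values were all whole (0 were not) and 0 columns were left unmatched.

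Tests used edgeR 4.0.16 in R 4.3.3 (quasi-likelihood F test, TMM, default filter, robust, Benjamini-Hochberg over all genes, threshold 0.05), tested on simulated data. Members that the filter removed were read from the fit without it. The standard error is the log2 fold change divided by the square root of F. Alternatives were DESeq2 1.42.0, limma 3.58.1 voom with sample weights, RLE, other filters, covariates and leaving out libraries. Log2 CPM for covariates and likeness used a prior count of 2.

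The members and lists were chosen with earlier results of these data known. Named genes were all members, the 2 highest of each other list, called genes, the 15 nearest in pattern, and the other myosin heavy chains; all further genes named with values were picked after their values were seen, among them Trdn, Xirp2, Mybpc1, Csrp3, Adipoq, Cidec, Lep, Plin1, Car3, Pax7, Myf5, Myod1 and Myog. Genes of other lists on which no result turned are covered by their list's range. Intervals are exact (95%) and, like the limit of 3 counts for a 0, cover counting error only. Gene coordinates and lengths come from GENCODE mouse release M21 (GRCm38, the assembly of mm10), matched for 37607 genes. Figures used matplotlib 3.10.9.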

Additional observations from a re-analysis of the deposited data

Results flagged for a closer look

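In each group of 5, libraries were marked where the gap to the nearest other library exceeded 0.71 of the group's range. This marked 11 values, several of them in the same library, over 96 groups of values. Chance marks about 1 in 20 groups where values are normally distributed. Counts near 0 are not: a lone count beside zeros, as for Myh4 in TMA-ARB replicate 6, is always marked. Among the described genes, Acta1 stood out in TMA-ARB replicate 6 at 277 CPM, with the other treated libraries at 49.4 to 109. Myh4 in the same library, at 0.060 CPM, and Myl1 in TMA-ARB replicate 8, at 0.221 CPM, were marked from 1 and 3 counts.

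Des, desmin, stood out in control replicate 1 at 30.6 CPM, with the other controls at 0 to 8.35. Ankrd1, a gene induced by mechanical load in muscle and other cells, stood out in control replicate 3 at 149 CPM (other controls 55.0 to 74.0) and in TMA-ARB replicate 8 at 162 (others 65.1 to 90.7). Tnnt2, cardiac troponin T, was at 4.79 CPM in TMA-ARB replicate 10 (others 2.89 to 3.32), and Chrnb1, an acetylcholine receptor subunit, was low at 12.3 CPM in TMA-ARB replicate 6 (others 17.04 to 18.9). Krt10, an epidermal keratin, was low in control replicate 2 at 5.60 CPM (others 8.90 to 10.1) and high in TMA-ARB replicate 9 at 24.0 (others 7.43 to 11.9). AI846148 was at 24.9 CPM in TMA-ARB replicate 8 (others 21.0 to 22.1).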

How the results depend on the processing

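No paired analysis was possible because the replicate numbers of controls (1 to 5) and of TMA-ARB libraries (6 to 10) are not shared. Among genes passing the low-count filter, DESeq2 called 2 (1 higher, 1 lower) and edgeR and limma called 0 under every scaling, filter, covariate and left-out library run. With no filter, DESeq2 again called 2 and the adipocyte covariate 1, which was Myh4; the other settings counted that way called 0. Of 171 member fold changes under alternatives, 160 had the same direction and side of the threshold, often with another size, 1 passed it (Myh4 with the adipocyte covariate, log2 fold change -12.08) and 10 reversed. For Ckm, Myh4, Tnnc2, Atp2a1, Pvalb and Myl1 the alternative with no filter is the main fit itself. Their sameness there was fixed in advance, and it is counted among the 160. With limma's voom and sample weights Mylpf shrank from -2.43 to -0.40, Tnnt3 from -1.59 to -0.22, Myh1 from -1.61 to -0.48, Ckm from -3.98 to -1.17, Tnnc2 from -5.13 to -2.01, Myl1 from -6.08 to -2.28 and Atp2a1 from -2.63 to -1.48, while Acta1 went from -0.10 to -0.72 (adjusted p = 0.500). Acta1 reversed to 0.21 with the mitochondrial share as covariate, and ran from -0.72 to 0.13 when libraries were left out in turn, turning positive without control replicate 2 (0.13) or TMA-ARB replicates 8 (0.05), 9 (0.05) or 10 (0.11). Without control replicates 1 and 3 together, Ckm reversed to 0.12, Myh1 to 0.18, Mylpf to 0.48, Tnnt3 to 0.85 and Myl1 to 0.45. That setting also turned the group difference in the summed 9 genes from -33.7 to 0.585 CPM; leaving out single libraries gave -42.5 to -15.0, the last without control replicate 1. For all 10 genes the difference was -41.6 CPM, with -81.4 when TMA-ARB replicate 6 was left out, -26.1 without TMA-ARB replicate 10, -27.4 without control replicate 1 and -9.88 without control replicates 1 and 3. The mean Myh4 share was 24.8% over 4 libraries and 47.6% over the 2 with at least 100 counts, and 15.4% without control replicate 1. With the union of exons as length, Myl1 in control replicate 1 fell to 6.89 CPM per kb, since that gene has 2074 union bases against 1082 in its longest transcript. Beyond these constructions, the cause was not tested. Low counts limit Pvalb, Myh4, Myl1 and Tnnc2 outside control replicates 1 and 3, where most libraries lay near the limit of 3 counts.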
